A study of Homo sapiens with 4 samples.

Results

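The let-7 family, with hsa-miR-98, was measured as 9 of the 1733 mature miRNAs counted in each of 4 small RNA libraries. The members were chosen by name, as the guide strands hsa-let-7a, 7b, 7c, 7d, 7e, 7f, 7g and 7i and hsa-miR-98, with earlier results of these data known. The libraries came from the human hepatoma cell lines Hep3B and Huh7 (hepatocellular carcinoma, HCC, cells) and from the hepatic cancer stem cell (HCSC) lines derived from them, Hep3B-C and Huh7-C. The labels name no agent, dose or time for any of the 4 groups, and each HCSC line is 1 line from its parent. Each group had 1 library, so no value has a replicate error, and every interval below is a 95% interval that covers counting error only.

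Let-7 miRNAs are small RNAs that bind target mRNAs through their seed, bases 2 to 8, and lower the output of those mRNAs. They are known to accumulate as cells differentiate and to repress growth and stem cell genes such as the RAS genes, MYC, HMGA2 and LIN28B. The protein LIN28 in turn binds let-7 precursors and blocks their maturation, and low let-7 is a known feature of many tumors and of undifferentiated cells.

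All 9 members matched a mature sequence in RefSeq (GRCh38.p14). They are shown because the members share their first part and are told apart by few bases, on which every count below depends. The capitals mark the seed.
hsa-let-7a: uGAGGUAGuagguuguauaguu
hsa-let-7b: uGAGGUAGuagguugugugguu
hsa-let-7c: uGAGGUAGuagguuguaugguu
hsa-let-7d: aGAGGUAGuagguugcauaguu
hsa-let-7e: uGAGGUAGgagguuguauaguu
hsa-let-7f: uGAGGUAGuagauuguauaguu
hsa-let-7g: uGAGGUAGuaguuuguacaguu
hsa-let-7i: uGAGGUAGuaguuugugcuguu
hsa-miR-98: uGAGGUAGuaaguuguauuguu

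Every member is 22 nt long and has the seed GAGGUAG. Counted from 1 at the 5′ end and with the base of hsa-let-7a first, the single substitutions were A19G in hsa-let-7c, U9G in hsa-let-7e and G12A in hsa-let-7f. Hsa-let-7b held A17G and A19G and was 1 base from hsa-let-7c. Hsa-let-7d held U1A and U16C, hsa-let-7g held G12U and U18C, and hsa-miR-98 held G11A and A19U. The most distant member from hsa-let-7a was hsa-let-7i, with 4 substitutions (G12U, A17G, U18C and A19U). Hsa-let-7a, 7b, 7c, 7e and 7f therefore form 1 class of 5 members in which each lies 1 base from another. A read of 1 member with a sequencing error at such a base cannot be told apart from a read of another. In the reference, 11 mature miRNAs carried the seed, and the 2 that are not members, hsa-miR-4458 and hsa-miR-4500, had 0 counts in all 4 libraries.

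The deposited libraries held 1739278 (Hep3B), 5430195 (Hep3B-C), 5741567 (Huh7) and 4045199 (Huh7-C) miRNA counts. MiRNA counts made up from 10.4% of the total reads in Hep3B to 54.1% in Huh7. Levels are given as TPM, which is counts per 1000000 reads of any kind in that library. A level of 3 counts, set as a floor by choice, was between 0.179 and 0.282 TPM. A single read (1 count) was between 0.0596 and 0.0941 TPM. The hepatocyte miRNAs hsa-miR-122, hsa-miR-192 and hsa-miR-194 were found in every library, hsa-miR-122 with 397 counts in Hep3B and 144814 to 489443 counts in the other libraries. Of 7 miRNAs of pluripotent stem cells, hsa-miR-302a, 302b, 302c, 302d and hsa-miR-367 were at 0 in all libraries, and hsa-miR-372 and hsa-miR-373 had at most 5 counts. Of the blood miRNAs, hsa-miR-451 had 773 counts in Huh7 and 1 to 2 counts elsewhere, while hsa-miR-223 and hsa-miR-142-3p reached at most 20 counts. The hepatocyte markers ranged in sum from 184559 to 1228315 counts and the blood markers from 1 to 793. The endothelial miRNA hsa-miR-126 had 807 to 2031 counts, and the mesenchymal miRNAs hsa-miR-143 and hsa-miR-145 together had 13 to 1711. The part of these differences in the let-7 values was not tested.

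The family as a whole was most abundant in the Hep3B line. Its 9 members summed to 181101 counts in Hep3B and 443526 in Hep3B-C, while the Huh7 and Huh7-C libraries held 66724 and 76343. On the TPM scale the family total was 10791 TPM (interval 10742 to 10841) in Hep3B and 28725 TPM (28642 to 28808) in Hep3B-C. It was 6282 TPM (6234 to 6329) in Huh7 and 7125 TPM (7075 to 7176) in Huh7-C. The order by TPM was therefore Hep3B-C, Hep3B, Huh7-C and Huh7, and no neighbours in that order had overlapping counting intervals.

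As a share of miRNA counts the order of the Hep3B libraries was the other way round. The family made up 10.4% of miRNA counts in Hep3B and 8.17% in Hep3B-C. It made up 1.16% in Huh7 and 1.89% in Huh7-C. The log2 fold-change of the family total, HCSCs over HCC cells, was 1.41 per 1000000 total reads and -0.35 per 1000000 miRNA counts in the Hep3B pair. It was 0.18 and 0.70 on these scales in the Huh7 pair. Hence the direction of the family total depended on the scale in the Hep3B pair and was positive on both scales in the Huh7 pair. The change of scale moved every log2 fold-change by -1.76 (Hep3B pair) or 0.52 (Huh7 pair), because the miRNA share of total reads differed between the libraries. Which scale stands nearer to the amount per cell was not measured.

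Hsa-let-7a, the mature product of 3 genes, was the leading member in every library. It had 104924 counts (6252 TPM) in Hep3B, 276287 (17894 TPM) in Hep3B-C, 54615 (5142 TPM) in Huh7 and 65069 (6073 TPM) in Huh7-C. Among all miRNAs it ranked 6th in Hep3B and Hep3B-C, 11th in Huh7 and 10th in Huh7-C. Hsa-let-7f, the product of 2 genes, had 26344, 46031, 6792 and 8399 counts in the same order of libraries (1570, 2981, 639 and 784 TPM). It was the second most abundant member in 3 libraries and the third in Hep3B-C.

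Hsa-let-7c was the member with the widest range. It had 26250 counts (1564 TPM) in Hep3B and 87854 (5690 TPM) in Hep3B-C, against 118 counts (11.1 TPM) in Huh7 and 194 (18.1 TPM) in Huh7-C. Hsa-let-7c was thus an abundant member in the Hep3B line and a minor one in the Huh7 line. In Huh7 its counts were 0.216% of those of hsa-let-7a, from which it differs by A19G, and in Huh7-C 0.298%. Whether so small a share came from hsa-let-7c or from misread hsa-let-7a cannot be told apart in the counts.

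Hsa-let-7e had 12481 counts (744 TPM) in Hep3B, 14092 (913 TPM) in Hep3B-C, 3659 (344 TPM) in Huh7 and 1490 (139 TPM) in Huh7-C. Hsa-let-7b had 6896 (411 TPM), 16083 (1042 TPM), 1144 (108 TPM) and 805 counts (75.1 TPM). Hsa-let-7g had 3827 (228 TPM), 2762 (179 TPM), 377 (35.5 TPM) and 362 counts (33.8 TPM). All of these were higher in both libraries of the Hep3B line than in either library of the Huh7 line.

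The remaining members were scarce. Hsa-let-7d had 253 and 256 counts in Hep3B and Hep3B-C, and 9 and 7 in Huh7 and Huh7-C. Hsa-let-7i had 74, 97, 5 and 12 counts, and hsa-miR-98 had 52, 64, 5 and 5. Together these 3 members held from 0.0285% of the family counts in Huh7 to 0.209% in Hep3B. In the order of members within each library, neighbours whose counting intervals of the ratio held 1 were hsa-let-7f and 7c (26344 and 26250 counts) and hsa-let-7i and miR-98 in Hep3B. In Huh7 and Huh7-C they were the neighbours among hsa-let-7d, 7i and miR-98, and in Hep3B-C there were none.

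**Figure D1:**
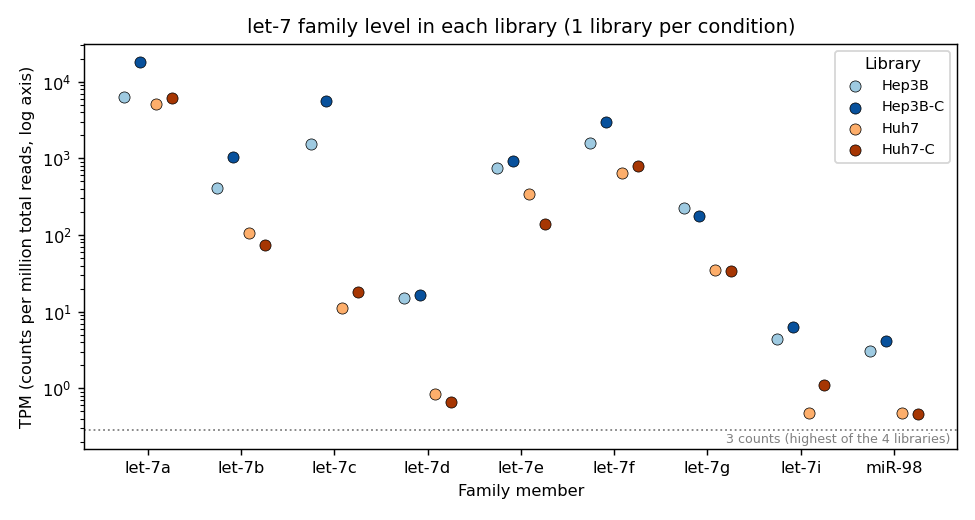
Each point is the level of a let-7 family member (x axis) in 1 of the 4 libraries, in counts per 1000000 total reads on a log axis (y axis), without error bars since each group had 1 library. Hsa-let-7a is the highest member in every library, at 5142 to 17894 TPM, and hsa-let-7c lies at 1564 and 5690 TPM in the Hep3B line and at 11.1 and 18.1 TPM in the Huh7 line; the dotted line marks 3 counts.

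The study compared HCSCs with the HCC cells they were derived from. Per 1000000 total reads, hsa-let-7a, 7b and 7c rose in Hep3B-C, and hsa-let-7e fell in Huh7-C. Of the 9 members, 3 were called higher in Hep3B-C, where 34.1% of the 834 miRNAs tested were called higher, and 0 were called lower, where 2.52% of miRNAs were. In Huh7-C, 0 members were called higher, against 3.11% of the 772 miRNAs tested, and 1 was called lower, against 17.1%. A call required a 2-fold difference in TPM together with an adjusted p no higher than 0.01 in the exact Poisson test (Audic and Claverie), which compares the reads of 2 libraries and not the conditions. With 9 members, shares of this size lie near those of all miRNAs tested, which include miRNAs with few counts. Among the 345 miRNAs with at least 10 counts in both Hep3B libraries, 57.7% were called higher and 4.93% lower. All 9 members reached these counts, and 3 of 9 lies below that share of 57.7%, a difference that was not tested. Among the 333 such miRNAs of the Huh7 pair, 5.71% were called higher and 27.6% lower.

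The calls depended on the scale. Per 1000000 miRNA counts, 0 members were called higher and 5 lower in Hep3B-C, where 5.64% of all miRNAs tested were called higher and 13.4% lower. In Huh7-C, 1 member (hsa-let-7c) was called higher and 0 lower on this scale, against 7.25% and 9.59% of all. The hsa-let-7c call rests on 118 counts in Huh7 and 194 in Huh7-C, which cannot be told apart from misread hsa-let-7a. When edgeR's exact test was run with an assumed biological coefficient of variation (0.4), to stand for variation between cultures, it called 0 members in either pair, and over all miRNAs it called 3% higher and 0% lower in Hep3B-C and 0.648% higher and 1.3% lower in Huh7-C.

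In the Hep3B pair, the log2 fold-changes of TPM were 1.52 for hsa-let-7a (interval 1.51 to 1.53), 1.34 for hsa-let-7b (1.30 to 1.38) and 1.86 for hsa-let-7c (1.84 to 1.88). In the exact Poisson test, all 3 adjusted p values were computed as 0. For hsa-let-7f the value was 0.93 (0.90 to 0.95), just under the threshold, and for hsa-let-7e it was 0.30 (0.26 to 0.33). Hsa-let-7g, at -0.35 (-0.42 to -0.28), was the only member with a negative value on this scale. The intervals of hsa-let-7d (-0.12 to 0.39) and hsa-miR-98 (-0.13 to 0.98) held 0, and that of hsa-let-7i was 0.06 to 0.97. The median over the 9 members was 0.51, and for all 345 miRNAs that reached 10 counts in each library it was 1.25. Per 1000000 miRNA counts these medians were -1.25 and -0.52, hsa-let-7c was the only member with a positive value (0.10), and hsa-let-7g had the lowest (-2.11).

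In the Huh7 pair, hsa-let-7e fell by 1.31 on the log2 scale (interval -1.40 to -1.22), and its adjusted p was 8.45e-210 (exact Poisson test). Per 1000000 miRNA counts its value was -0.79, which is under the threshold. The value of hsa-let-7b was -0.52 (-0.65 to -0.39), that of hsa-let-7c 0.70 (0.37 to 1.05), that of hsa-let-7f 0.29 (0.25 to 0.34) and that of hsa-let-7a 0.24 (0.22 to 0.26). Hsa-let-7g stood at -0.07 (-0.28 to 0.14). Hsa-let-7i had the highest value, 1.25, but with 5 and 12 counts its interval was -0.36 to 3.11, and those of hsa-let-7d and hsa-miR-98 also held 0. The median was -0.01 over the members and -0.51 for all 333 miRNAs that reached 10 counts in each library. Per 1000000 miRNA counts these medians were 0.51 and 0.01, and the value of hsa-let-7c was 1.22, past the threshold.

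**Figure D2:**
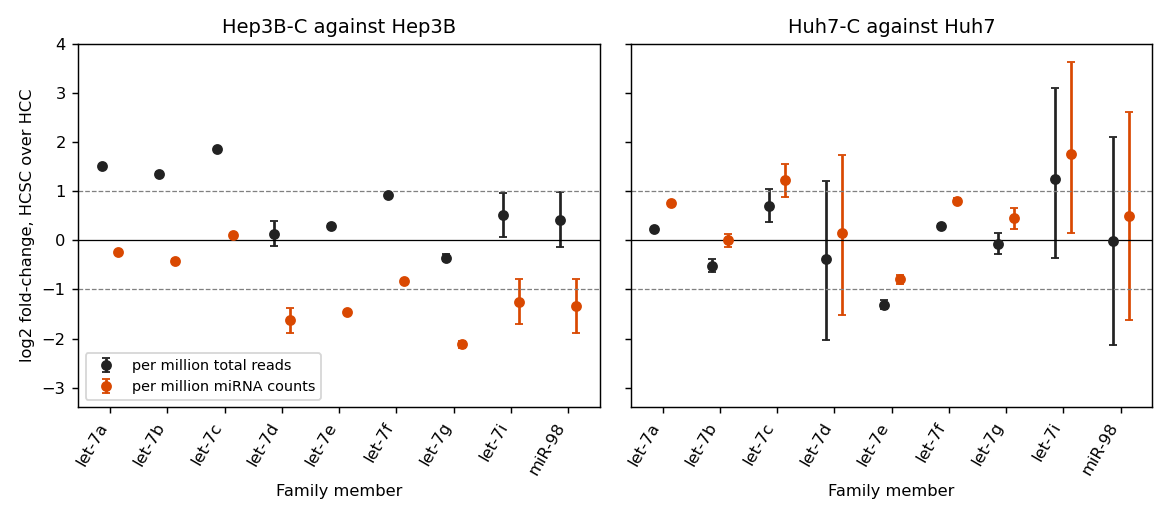
Points give the log2 fold-change of each member (y axis), HCSCs over HCC cells, in the Hep3B pair (left) and the Huh7 pair (right), and bars give 95% counting intervals. Black points are per 1000000 total reads and orange points per 1000000 miRNA counts, dashed lines mark the threshold of 1 on the log2 scale, and the colors are 1.76 apart on the left and 0.52 apart on the right.

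The ratio of a member to hsa-let-7a within a library does not depend on the library size. From Hep3B to Hep3B-C, the ratio of hsa-let-7g to hsa-let-7a changed by -1.87 on the log2 scale (interval -1.94 to -1.80). The ratio of hsa-let-7e changed by -1.22 (-1.26 to -1.19), that of hsa-let-7d by -1.38 (-1.63 to -1.13), that of hsa-let-7f by -0.59 (-0.62 to -0.57) and that of hsa-let-7b by -0.18 (-0.22 to -0.13). The ratio of hsa-let-7c changed by 0.35 (0.32 to 0.37) and was the only ratio with a positive change in this pair. From Huh7 to Huh7-C, the ratio of hsa-let-7e changed by -1.55 (-1.64 to -1.46), that of hsa-let-7b by -0.76 (-0.89 to -0.63), that of hsa-let-7g by -0.31 (-0.52 to -0.10) and that of hsa-let-7c by 0.46 (0.13 to 0.80). Relative to hsa-let-7a, hsa-let-7b, 7e and 7g were thus lower and hsa-let-7c higher in the HCSC library of each line. In the Huh7 line the hsa-let-7c value rests on 118 and 194 counts, which cannot be told apart from misread hsa-let-7a. For hsa-let-7f the change was 0.05 (interval 0.0047 to 0.10) in the Huh7 pair.

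The balance among the 9 members differed more between the cell lines than between HCC cells and HCSCs of a line. With members 1 base apart joined, this order did not hold, but joining hides every difference among hsa-let-7a, 7b, 7c, 7e and 7f. Hsa-let-7a made up 57.9% of the family counts in Hep3B (interval 57.7% to 58.2%) and 62.3% in Hep3B-C, while its shares in Huh7 and Huh7-C were 81.9% and 85.2%. Hsa-let-7c made up 14.5%, 19.8%, 0.177% and 0.254%. Hsa-let-7e made up 6.89%, 3.18%, 5.48% and 1.95%. The share of hsa-let-7f lay between 10.2% in Huh7 and 14.5% in Hep3B.

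The share of family counts that would have to move between members to turn the balance of 1 library into that of another was 9.67% for the Hep3B pair and 4.29% for the Huh7 pair. Between Hep3B and Huh7 it was 23.9%, and between Hep3B-C and Huh7-C 23.6%. With the 5 members that lie 1 base apart taken as 1, the distances were 1.61% for the Hep3B pair, 0.0961% for the Huh7 pair, 1.73% between the parent lines and 0.211% between the HCSC lines. What remained was 16.6% of the distance for the Hep3B pair and 2.24% for the Huh7 pair, and the HCSC lines then lay nearer to each other than Hep3B-C lay to Hep3B. Joining could only leave small distances. Of the members kept apart, the largest, hsa-let-7g, held at most 2.11% of the family counts (Hep3B). The joined class also holds members 3 bases apart (hsa-let-7b and 7e, hsa-let-7b and 7f). Differences among its members do not show in the joined distances. The effective number of members (the number of equal members with the same evenness) was 3.60 (Hep3B), 3.06 (Hep3B-C), 1.95 (Huh7) and 1.73 (Huh7-C). In the miR-30 family, another family of 1 seed, measured here as 5 members, the distance was 4.52% for the Hep3B pair, 19.7% for the Huh7 pair, 50.4% between the parent lines and 45.2% between the HCSC lines, so a larger distance between lines was not particular to let-7. The miR-30 total was 5322 TPM (Hep3B), 9136 TPM (Hep3B-C), 36655 TPM (Huh7) and 16616 TPM (Huh7-C), and was thus highest in Huh7, where the let-7 total was lowest.

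**Figure D3:**
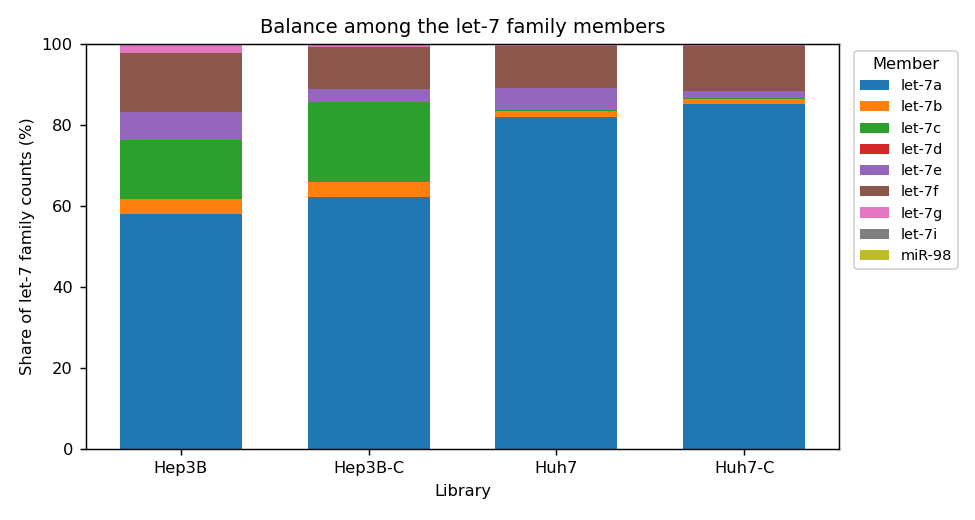
Each bar is 1 library (x axis) and shows the share of let-7 family counts held by each member in percent (y axis). Hsa-let-7a holds 57.9% and 62.3% in the Hep3B line and 81.9% and 85.2% in the Huh7 line, and the segment of hsa-let-7c (14.5% and 19.8%) is nearly missing in the Huh7 line.

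Between the parent lines, hsa-let-7c was 141-fold higher in Hep3B than in Huh7 per 1000000 total reads (interval 118 to 170). Between the HCSC lines Hep3B-C exceeded Huh7-C 314-fold (273 to 364). The family total was 1.72-fold and 4.03-fold higher in the Hep3B line. For hsa-let-7a the folds were 1.22 and 2.95, for hsa-let-7b 3.82 and 13.9, and for hsa-let-7g 6.43 and 5.29. All 9 members were higher in the Hep3B line in both comparisons, and the folds were larger still per 1000000 miRNA counts, 8.96 and 4.33 for the family total. These line differences compare 1 library with 1 library and were not tested.

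The members come from 12 genes, several of which lie beside genes of the miR-99/100 and miR-125 families. MiRNAs whose genes lie close together are often cut from 1 primary transcript, and the position of a gene is therefore given with its neighbours. Positions are those of GENCODE release 29 (GRCh38), matched by name, since the deposited counts carry no coordinates. MIRLET7C (chr21:16539828-16539911, plus strand) lies in an intron of MIR99AHG, 658 bases from MIR99A and 50325 bases from MIR125B2. MIRLET7E (chr19:51692786-51692864, plus strand) lies in an intron of SPACA6, 104 bases from MIR99B and 389 bases from MIR125A. MIRLET7A2 (chr11:122146522-122146593, minus strand) lies in an intron of MIR100HG between MIR125B1 and MIR100. MIRLET7A1, MIRLET7F1 and MIRLET7D lie together on chromosome 9, MIRLET7A3 and MIRLET7B in exons of MIRLET7BHG on chromosome 22, and MIRLET7F2 and MIR98 in an intron of HUWE1 on chromosome X. MIRLET7G lies in an intron of WDR82 on chromosome 3, and MIRLET7I on chromosome 12.

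The hairpins of MIRLET7C and MIRLET7E are shown because the largest difference between the lines and the call in the Huh7 pair rest on their products. They are written on the transcript strand from RefSeq (GRCh38.p14), and the capitals mark GGAG wherever it lies in the hairpin. The zinc knuckles of LIN28 are known to bind GGAG in let-7 precursors, but the search took no account of position.
MIRLET7C: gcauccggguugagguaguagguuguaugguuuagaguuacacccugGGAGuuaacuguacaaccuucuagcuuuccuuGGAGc
MIRLET7E: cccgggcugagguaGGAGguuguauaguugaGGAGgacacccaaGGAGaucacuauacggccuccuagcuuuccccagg

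GGAG, searched on the transcript strand only and with no other motif, was found in 9 of the 12 member hairpins (75%) and in 43.4% of the 1562 hairpins in the reference, whose lengths differ. It was not found in MIRLET7A3, MIRLET7B and MIR98. Some matches lie outside the stretch between the strands. In MIRLET7C the match at base 80 lies past the start of the passenger strand at base 56. In MIRLET7E the match at base 15 lies inside the mature sequence (bases 8 to 29). These matches describe letters in the hairpins and say nothing of binding in these cells.

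On chromosome 21, the neighbours of hsa-let-7c differed between the lines in the same direction as hsa-let-7c. Hsa-miR-99a had 361 counts (21.5 TPM) in Hep3B and 1191 (77.1 TPM) in Hep3B-C, against 12 counts for Huh7 and 15 for Huh7-C. Hsa-miR-125b-2*, the passenger strand that comes from MIR125B2 alone, had 372, 1025, 20 and 38 counts. In the Hep3B pair the log2 fold-changes were 1.86 for hsa-let-7c, 1.84 (interval 1.67 to 2.02) for hsa-miR-99a and 1.58 (1.41 to 1.76) for hsa-miR-125b-2*. All 3 products of this cluster rose together in Hep3B-C on this scale, and per 1000000 miRNA counts they stood at 0.10, 0.08 and -0.18. The passenger strands of the neighbours were added to the list after their values were seen.

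On chromosome 19, hsa-miR-99b had 38773 counts (2310 TPM) in Hep3B, 41499 (2688 TPM) in Hep3B-C, 21606 (2034 TPM) in Huh7 and 11036 (1030 TPM) in Huh7-C. Its log2 fold-changes of 0.22 (interval 0.20 to 0.24) and -0.98 (-1.01 to -0.95) lay beside those of hsa-let-7e, 0.30 and -1.31. Hsa-miR-125a-5p had 683, 1610, 1854 and 572 counts, with log2 fold-changes of 1.36 (1.23 to 1.49) and -1.71 (-1.85 to -1.57), both called. The ratio to hsa-let-7a changed by -1.30 and -1.22 for hsa-miR-99b and by -1.22 and -1.55 for hsa-let-7e. For hsa-miR-125a-5p it changed by -0.16 and -1.95, so that not all products of this cluster moved by the same amount. For hsa-miR-125a-3p, the other arm of MIR125A with 28 to 102 counts, the ratio changed by -1.23 (interval -1.64 to -0.82) and -2.12 (-2.72 to -1.51). For hsa-miR-99b* it changed by -1.54 (-1.73 to -1.36) and -1.68 (-2.01 to -1.35). In the Hep3B pair the small change of hsa-miR-125a-5p was thus not seen in the other arm of its gene.

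On chromosome 11, hsa-miR-100 had 1307 counts (77.9 TPM) in Hep3B, 378 (24.5 TPM) in Hep3B-C, 8097 (762 TPM) in Huh7 and 3876 (362 TPM) in Huh7-C. In Hep3B-C it fell by 1.67 on the log2 scale (interval -1.84 to -1.50), and in Huh7-C it fell by 1.08 (-1.13 to -1.02). Hsa-miR-125b-1*, which comes from MIR125B1 alone, had 3, 3, 65 and 31 counts. The neighbours of MIRLET7A2 were thus higher in the Huh7 line, where hsa-let-7a was lower. Hsa-let-7a is cut from 3 genes, so its counts do not show the product of MIRLET7A2. Hsa-miR-125b, the product of MIR125B1 and MIR125B2, had 381, 1517, 819 and 422 counts, with log2 fold-changes of 2.11 (1.95 to 2.28) and -0.97 (-1.14 to -0.80). Of the 5 guide strands beside let-7 genes, 3 were called higher and 1 lower in Hep3B-C, where the shares of all miRNAs were 34.1% and 2.52%. In Huh7-C, 0 were called higher and 2 lower, against 3.11% and 17.1%. Per 1000000 miRNA counts, 0 were called higher and 2 lower in Hep3B-C (all miRNAs 5.64% and 13.4%), and 0 higher and 1 lower in Huh7-C (7.25% and 9.59%).

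**Figure D4:**
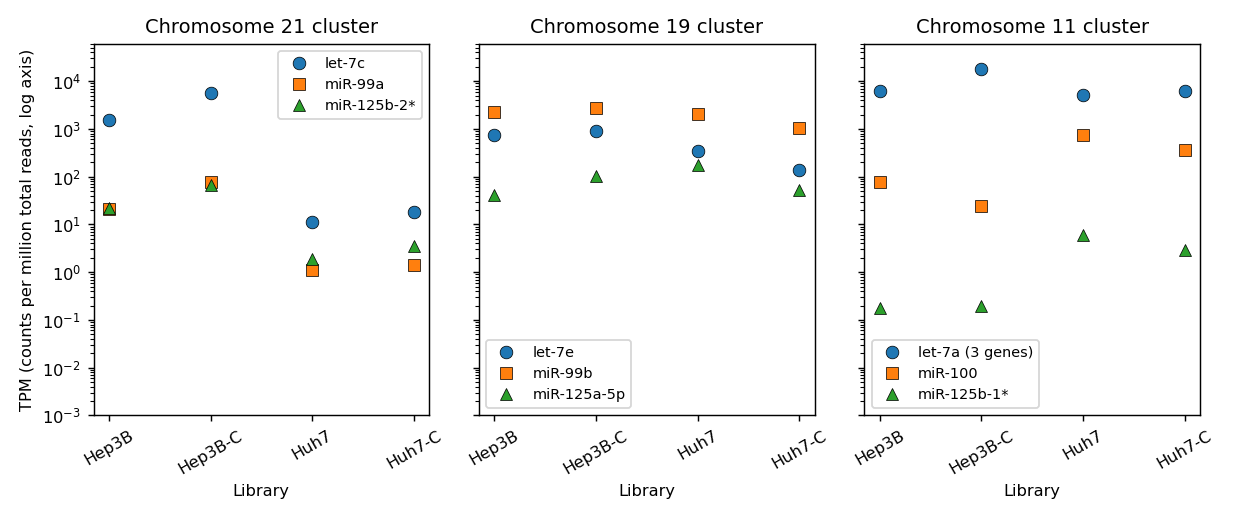
Levels of products of 3 miRNA clusters that hold a let-7 gene are plotted by library (x axis) in counts per 1000000 total reads on a log axis (y axis), 1 library per point. In the chromosome 21 cluster all 3 plotted products are lower in the Huh7 line. In the chromosome 11 cluster hsa-miR-100 is higher in the Huh7 line, at 762 and 362 TPM against 77.9 and 24.5 TPM.

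Both lines were also fitted together, with each HCSC library set beside its parent. By edgeR's quasi-likelihood test, 0 of the 9 members were called higher and 0 lower in HCSCs at an adjusted p of 0.05, where 0% of the 443 miRNAs tested were called either way. At an unadjusted p under 0.05 there were 0 members and 31 of all miRNAs, and DESeq2 called 0 members, and 4 miRNAs higher and 1 lower over all. The largest joint log2 fold-change was that of hsa-let-7c, 0.96 ± 0.43 (SE), with an adjusted p of 0.584 from edgeR. The lowest was that of hsa-let-7e, -0.83 ± 0.47 (SE), with an adjusted p of 0.605 from edgeR. Both SEs were worked back from the fold-change and the test statistic, since edgeR gives none. The SEs from DESeq2 were 0.60 for hsa-let-7c and 0.55 for hsa-let-7e. With 1 residual degree of freedom, this fit does not show that the members were equal in HCSCs and HCC cells.

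The passenger strands of the let-7 hairpins were nearly absent. The 9 with a row in the count tables summed to 22 (Hep3B), 71 (Hep3B-C), 23 (Huh7) and 26 (Huh7-C) counts, which is between 0.0121% and 0.0345% of the guide counts. Hsa-let-7a* held 11, 55, 17 and 23 of them. No member of the family was therefore measured on its passenger strand at a depth that allows a comparison, apart from hsa-let-7a*.

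Among the 124 other miRNAs with at least 100 counts in every library, 5 were nearest to the family total in their pattern of log2 TPM over the 4 libraries, each centred on its own mean. They were hsa-miR-3691-5p (Euclidean distance 0.53 on the log2 scale), hsa-miR-181a* (0.58), hsa-miR-181a (0.69), hsa-miR-744 (0.72) and hsa-miR-183 (0.72). Hsa-miR-181a, for example, was at 615 TPM (Hep3B), 1142 TPM (Hep3B-C), 239 TPM (Huh7) and 206 TPM (Huh7-C). Like the family total, each of the 5 was highest in Hep3B-C on this scale. They were picked for likeness over these same 4 libraries, so this shared peak is no separate result. Hsa-miR-181a and hsa-miR-181a* were lowest in Huh7-C and hsa-miR-183 in Hep3B (2015 TPM). The other miRNAs of the 5 were lowest in Huh7, as was the family total. With 4 libraries the likeness is a description only.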

How the data were processed

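Small RNA of 4 cell populations was sequenced on the Illumina Genome Analyzer II, 1 library each. Contaminant reads, redundant reads and reads under 18 nt were removed by the authors, who mapped the rest with SOAP (version not given in the sources used here) to NCBI human genome Build 36.1, set other RNA classes aside and searched the remainder in miRBase release 17. The authors deposited raw counts per mature miRNA, without normalization. How reads that match several members were assigned was not stated in the sources used here.

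TPM used the total reads given in the study's methods. The exact Poisson test, 2-sided, took every miRNA counted at least once (1 count) in a pair, with Benjamini-Hochberg adjustment and a TPM of 0 set to 0.001. The upper tail was first computed with the observed count included and called 275 and 23 miRNAs higher in Hep3B-C and Huh7-C. These counts were then seen to differ from those of an earlier analysis of these data. The form that leaves the observed count out was taken as the main test after that, and it called 284 and 24. The study's methods name no tail form, and the choice was read from the p-values it lists. The calls of members and of cluster partners were equal under both forms. The joint fit used edgeR with TMM, the parent line as a block (taken from the labelled line names) and a minimum of 10 counts in 2 or more libraries. Libraries of a line deviated together from the means of HCC cells and HCSCs (Pearson r 0.836 across 443 miRNAs, which are not independent replicates). Shares have exact Clopper-Pearson intervals, and log2 ratios have exact binomial intervals.

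By rule, the text names the members, their passenger strands, 5 cluster partners, the miR-30 family, other miRNAs of the seed, the 5 nearest patterns and the marker lists. The members and lists were chosen with earlier results of these data known. Hsa-miR-125a was matched to hsa-miR-125a-5p, and hsa-let-7c* and hsa-miR-98* had no row in the tables used. Alternatives were other library sizes, filters, thresholds, pseudocounts, DESeq2, no block and each library left out. Both tests were run on simulated counts. The pair test recovered 100% of 200 well counted miRNAs changed 4-fold in each pair. Those counts held counting error only, so the result says nothing of variation between cultures. The outcome for the joint test is not given here. Tools were Python 3.11.15, numpy 2.4.6, scipy 1.17.1, pandas 2.3.3, matplotlib 3.10.9, R 4.3.3, edgeR 4.0.16 and DESeq2 1.42.0.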

Additional observations from a re-analysis of the deposited data

Results flagged for a closer look

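For 2 members and 3 cluster partners, the log2 fold-change per 1000000 total reads had opposite signs in the pairs, with both counting intervals off 0. The share of all miRNAs with opposite signs is not given here. On this scale the median was 1.25 over 345 well counted miRNAs of the Hep3B pair. It was -0.51 over 333 such miRNAs of the Huh7 pair. These medians also had opposite signs, so the signs alone do not set the 5 apart. Per 1000000 miRNA counts the medians were -0.52 and 0.01. The difference between the pairs was not tested, since each group had 1 library. The value in the Huh7 pair minus that in the Hep3B pair was -1.86 for hsa-let-7b and -1.60 for hsa-let-7e. It was -3.08 for hsa-miR-125b, -1.20 for hsa-miR-99b and -3.07 for hsa-miR-125a-5p. Per 1000000 miRNA counts, hsa-miR-125b was the only one of these 5 with opposite signs and both intervals off 0, at a difference of -0.80, and hsa-let-7a (1.004), hsa-let-7f (1.65), hsa-let-7g (2.56) and hsa-let-7i (3.02) had opposite signs instead.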

How the results depend on the processing

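Library size moved the calls and the family totals. In the sentences below, the 4 other library sizes stand in the order total miRNA counts, TMM, DESeq2 size factors and miRNA counts without the 5 most abundant miRNAs. Members called higher in Hep3B-C went from 3 to 0 under each, against 5.64%, 8.51%, 11.5% and 8.39% of all miRNAs. Members called lower there went from 0 to 5, 3, 2 and 5, against 13.4%, 9.11%, 7.07% and 9.71% of all. Members called higher in Huh7-C (hsa-let-7c) went from 0 to 1, 1, 1 and 1, against 7.25%, 5.18%, 7.64% and 6.74% of all. Members called lower there went from 1 to 0 under each, against 9.59%, 11.7%, 9.2% and 9.97% of all. The hsa-let-7c call rests on reads that cannot be told apart from misread hsa-let-7a. Cluster partners called higher in Hep3B-C went from 3 to 0 under each, and those called lower from 1 to 2, 2, 1 and 2. Partners called lower in Huh7-C went from 2 to 1 under each. The partners' counts stand against the same shares of all miRNAs as the members' counts. With a biological coefficient of variation of 0.4, every one of these counts was 0. The log2 fold-change of the family total in the Hep3B pair went from 1.41 to -0.35, -0.00094, 0.23 and -0.10, and in the Huh7 pair from 0.18 to 0.70, 0.50, 0.75 and 0.64.

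In the Hep3B pair, the log2 fold-changes that turned negative, in the same order, were those of hsa-let-7d (-1.63, -1.28, -1.04 and -1.38), hsa-let-7e (-1.47, -1.12, -0.88 and -1.22), hsa-let-7f (-0.84, -0.49, -0.25 and -0.59), hsa-let-7i (-1.25, -0.90, -0.67 and -1.002) and hsa-miR-98 (-1.34, -0.99, -0.76 and -1.09). That of hsa-let-7a turned negative with total miRNA counts only (-0.25), and that of hsa-let-7b with all but DESeq2 size factors (-0.42, -0.071 and -0.17). In the Huh7 pair, those that turned positive were hsa-let-7g (0.45, 0.25, 0.50 and 0.38), hsa-miR-98 (0.51, 0.30, 0.56 and 0.44), hsa-let-7d with all but TMM (0.14, 0.20 and 0.078) and hsa-let-7b with DESeq2 size factors (0.054). These turns follow from the change of library size alone, which shifts every miRNA of a pair by the same amount.

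Without the 5 most abundant miRNAs in the denominator, the family share was 17.9% (Hep3B), 16.7% (Hep3B-C), 4.59% (Huh7) and 7.12% (Huh7-C). With members 1 base apart joined, the balance distances were 1.61% and 0.0961%, values that could only be small since the joined members held nearly all family counts. A filter of 10 counts, 1 TPM added, an adjusted p of 0.05, or the observed count in the upper tail (chosen after the data were seen) changed no count of members or partners called. In the same order, the shares of all miRNAs called higher in Hep3B-C were 57.7%, 26.4%, 39.8% and 33%. Those called lower were 4.93%, 1.8%, 2.52% and 2.52%. In Huh7-C, 5.71%, 2.72%, 3.89% and 2.98% were called higher, and 27.6%, 14.8%, 19.9% and 17.1% lower. The filter left 6 members in the Huh7 pair, without hsa-let-7d, 7i and hsa-miR-98. Without the replicate block, with DESeq2, with total reads and without the filter, the joint test called 0 members. The fits with a library left out also dropped the block, so cell line and HCSC state were mixed in them. The members' median log2 fold-change was then 2.40 without Hep3B, -2.32 without Hep3B-C, -1.32 without Huh7 and 0.30 without Huh7-C. No calls are read from these fits. Leaving a library out leaves a state with 1 sample, assumed to vary like the other. For hsa-let-7d, 7i and hsa-miR-98 in the Huh7 pair (5 to 12 counts), the intervals per total reads held 0 and no difference was detectable at this depth.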
